A study of Mus musculus with 6 samples.

Results

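Transcripts of 10 genes best known as products of hepatocytes were read in 6 mouse lungs: Mup1, Mup3, Mup4 and Mup5 (major urinary proteins), Alb (serum albumin), Serpina1b and Serpina1d (alpha-1-antitrypsin copies), Fgb (fibrinogen beta chain), Ambp (alpha-1-microglobulin and bikunin precursor) and Apoa2 (apolipoprotein A-II). They are 10 of 20239 genes compared, and 13 of the 41174 probes on the array belong to them. Each gene was read through its brightest probe, the one with the highest mean processed signal. The genes were chosen by their log2 signals in these same lungs, which varied widely within both genotypes, so that variation and the shared order of the lungs are given below as a description, with no test. The samples were lungs of untreated (naive) male mice aged 8 weeks, 3 Nogo-A/B knockout mice (KO1, KO11 and KO12) and 3 wild-type mice (WT11, WT12 and WT13), each a separate biological replicate numbered as in the labels, for a study of Nogo in asthma. The knockout lacks Nogo-A and Nogo-B, products of the reticulon gene Rtn4. The strain, the allele and the way the lungs were dissected are not given in the sources used here. RNA of each lung was hybridised to 1 Agilent array carrying probes of 60 bases and read in 1 colour.

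Major urinary proteins are small lipocalins that the mouse liver secretes in large amounts into blood, from which they pass into urine and carry pheromones. Albumin, alpha-1-antitrypsin, fibrinogen, bikunin and apolipoprotein A-II are likewise plasma proteins made mainly by hepatocytes. Alpha-1-antitrypsin protects the lung from neutrophil elastase and reaches it largely through the circulation. Some major urinary protein genes are also active in lacrimal, salivary and nasal glands, and fibrinogen chains can be made by lung epithelium during inflammation. In whole lung, fewer cells of a type and less RNA per cell cannot be told apart.

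Several of these genes have near-identical copies, so the probes that carry the values are shown first. The Mup genes lie side by side on chromosome 4 and the Serpina1 genes on chromosome 12, on the mouse build mm7 that the array files use. The array holds 7 probes named for Mup genes and 4 named for Serpina1 genes. Sequences are those of the array files, 5′ to 3′, and capitals mark a run of bases that the probe shares with another probe of the family. The brightest Mup1 probe (chr4:60420781-60421004) shares 31 bases with a probe for a transcript without a gene name (NAP112201-1, chr4:60950386-60950567). The other Mup1 probes (chr4:60502405-60502464 and chr4:60951764-60953063) share 20 bases with each other.
Mup1, brightest probe: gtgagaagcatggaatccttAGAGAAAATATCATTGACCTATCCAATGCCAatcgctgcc
NAP112201-1: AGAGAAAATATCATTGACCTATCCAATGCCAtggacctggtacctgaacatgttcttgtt
Mup1, next probe: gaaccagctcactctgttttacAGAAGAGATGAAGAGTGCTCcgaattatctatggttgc
Mup1, dimmest probe: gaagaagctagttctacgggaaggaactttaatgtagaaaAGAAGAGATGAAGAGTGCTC

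The probes for Mup3 (chr4:61517162-61517210), Mup4 (chr4:59998341-59998400), Mup5 (chr4:61268759-61268818), Serpina1b (chr12:101224607-101226106) and Serpina1d (chr12:101257751-101257810) hold no run of 14 or more bases in common with another Mup or Serpina1 probe. They are printed to show the letters by which each gene was read. The Serpina1b probe does share 14 bases with a probe for a predicted transcript described as similar to a serine (or cysteine) peptidase inhibitor. The signal of that other probe was highest in WT13, at 684. A shared run between probes does not measure what a probe binds, and whether a probe also binds the transcripts of other copies was not tested.
Mup3: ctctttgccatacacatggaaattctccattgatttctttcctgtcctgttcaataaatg
Mup4: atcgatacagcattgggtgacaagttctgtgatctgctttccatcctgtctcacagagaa
Mup5: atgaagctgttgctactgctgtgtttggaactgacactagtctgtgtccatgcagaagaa
Serpina1b: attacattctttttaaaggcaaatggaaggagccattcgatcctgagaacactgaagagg
Serpina1d: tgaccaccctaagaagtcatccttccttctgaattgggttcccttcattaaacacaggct

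By the scanner software's own call, the share of probes well above background was 68.9% to 78.0% per array. Rtn4 was read first as a check of the labels. A probe in the Rtn4 locus (chr11:29649392-29649451) had log2 values of -8.03, -8.46 and -8.29 in KO1, KO11 and KO12, against -3.03, -2.90 and -2.27 in WT11, WT12 and WT13. It was well above background in the wild-type lungs and not in the knockout lungs. The Rtn4 probe used in the comparison of all genes, at the 3′ part of the gene (chr11:29693516-29693723), had values of 1.099, -0.71 and -1.79 in KO1, KO11 and KO12, against 1.69, 1.62 and 2.36 in WT11, WT12 and WT13. The genotypes did not overlap on either probe, nor on another 3′ probe (chr11:29693536-29694301). They did overlap on a dim Rtn4 probe (chr11:29658879-29658938) that was well above background on 1 array. It read -9.18, -8.74 and -7.27 in KO1, KO11 and KO12, against -8.46, -7.12 and -5.28 in WT11, WT12 and WT13. The 3′ probe is assigned to every Rtn4 variant that the array files list for it, and is no check of the deleted products. The arrays were scanned on 2 days, with KO1, KO11 and WT13 on day 1 and KO12, WT11 and WT12 on day 2.

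All values below are log2 signals from which the 75th percentile of the same array was subtracted, so 0 is that percentile and negative values lie under it. Levels of different probes cannot be set against each other, and each gene is compared across lungs.

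Among the major urinary proteins, Mup1 had values of -0.18, -8.47 and -6.04 in KO1, KO11 and KO12, against -0.35, 1.19 and -6.19 in WT11, WT12 and WT13. KO1, WT11 and WT12 were therefore high and KO11, KO12 and WT13 low, with a gap of 5.69 between the lowest of the high lungs and the highest of the low ones. On the linear scale the processed signal was 1858, 4.60 and 16.5 in KO1, KO11 and KO12, against 1284, 4841 and 32.2 in WT11, WT12 and WT13. The probe was not well above background in KO11, and WT12 was at least 204-fold above that lung. The 2 dimmer Mup1 probes were well above background in KO1, WT11 and WT12 and in no other lung. The next probe read 209, 4.48 and 3.49 in KO1, KO11 and KO12, against 142, 548 and 12.1 in WT11, WT12 and WT13.

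Mup4, a relative known also from glands of the head, had values of -0.51, -7.01 and -5.17 in KO1, KO11 and KO12, against -0.75, 0.80 and -3.72 in WT11, WT12 and WT13. The order of the lungs was that of Mup1 except that WT13 lay above KO12. WT12 was at least 156-fold above KO11, the lung in which the Mup4 probe was not well above background. Mup3 had values of -1.87, -6.37 and -5.28 in KO1, KO11 and KO12, against -3.51, -1.96 and -4.24 in WT11, WT12 and WT13. Here KO1 was the highest lung, 0.08 above WT12, and WT11 lay only 0.73 above WT13, the narrowest gap between high and low lungs among the 10 genes. A dimmer Mup3 probe did not reach the well-above-background call in any lung. Mup5 had values of -5.79, -8.81 and -7.54 in KO1, KO11 and KO12, against -5.67, -4.73 and -6.95 in WT11, WT12 and WT13. Its probe was well above background in KO1, WT11 and WT12 and in none of the others, so the spread is known only as at least 3.98-fold.

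The alpha-1-antitrypsin copy Serpina1d was well above background in all 6 lungs. Its values were -0.35, -6.02 and -4.37 in KO1, KO11 and KO12, against -0.84, 0.58 and -4.26 in WT11, WT12 and WT13. WT12 was 96.8-fold above KO11, and both ends of that ratio were measured. Serpina1b had values of -4.99, -8.42 and -8.26 in KO1, KO11 and KO12, against -5.53, -4.30 and -8.50 in WT11, WT12 and WT13. Its probe was well above background in the same lungs as that of Mup5, KO1, WT11 and WT12, and the spread was at least 5.33-fold. Serpina1e, another copy that was not among the 10, stood at -5.11 in KO1 and -5.03 in WT12, its highest lungs, and was lowest in KO11, at -7.77. Serpina1f was not well above background in any lung.

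Alb, which encodes the most abundant protein of plasma, was also well above background in all 6 lungs. It had values of -1.45, -4.38 and -3.94 in KO1, KO11 and KO12, against -2.11, -1.27 and -3.92 in WT11, WT12 and WT13. Its range of 3.12, or 8.67-fold, was the narrowest of the 10 genes. Fgb, a subunit of the clotting protein fibrinogen, had values of -3.38, -7.59 and -7.06 in KO1, KO11 and KO12, against -3.36, -1.64 and -6.51 in WT11, WT12 and WT13. KO1 minus WT11 was -0.02 in Fgb, and the spread over the lungs was at least 29.2-fold. The fibrinogen gamma chain gene Fgg, not among the 10, had a different order, with -3.15, -2.51 and -3.90 in KO1, KO11 and KO12, against -2.04, -1.18 and -2.95 in WT11, WT12 and WT13.

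Ambp, whose product is cleaved into a heme-binding lipocalin and a protease inhibitor, had values of -3.34, -4.43 and -6.63 in KO1, KO11 and KO12, against -2.78, -2.06 and -5.98 in WT11, WT12 and WT13. In Ambp the lowest lung was KO12, the lung where its probe was not well above background, and KO12 minus KO11 was -2.19. Apoa2, a protein of high-density lipoprotein, had values of -3.88, -7.30 and -6.86 in KO1, KO11 and KO12, against -5.78, -4.89 and -6.69 in WT11, WT12 and WT13. KO1 stood 1.005 above WT12 in Apoa2, and KO11, KO12 and WT13 were not well above background. The spread was at least 7.02-fold for Apoa2 and at least 18.8-fold for Ambp.

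**Figure D1:**
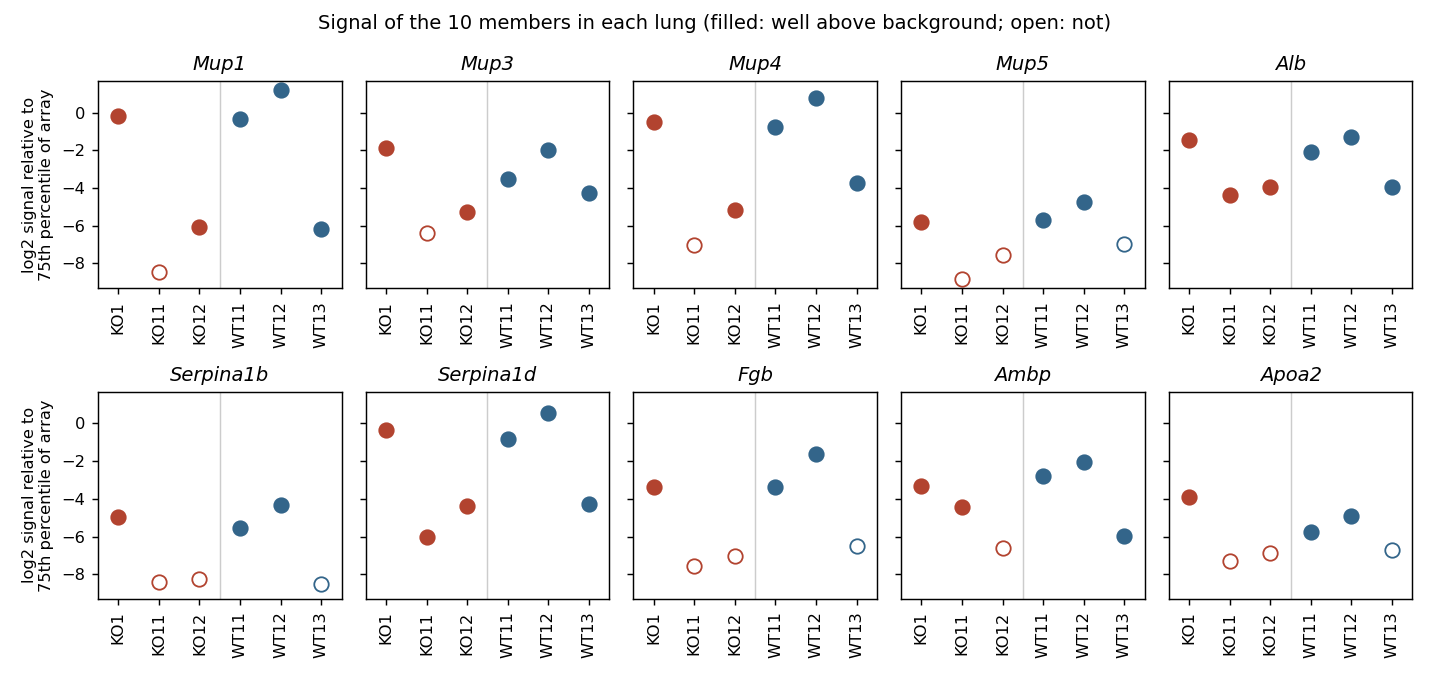
Log2 signal of each of the 10 genes relative to the 75th percentile of the array (vertical axis) in each lung, with knockout lungs in red on the left and wild-type lungs in blue on the right. Filled points were well above background and open points were not. In every panel KO1, WT11 and WT12 lie above KO11, KO12 and WT13, and the genotypes overlap.

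KO1, WT11 and WT12 were the 3 highest lungs in 10 of 10 genes, against 3.79% of all genes compared. This order is part of what the genes were picked for, so the count is a description. Mup5, Serpina1b, Fgb and Apoa2 were well above background in those 3 lungs alone, and entered the comparison through them. KO1 was the highest lung in 2 genes (Mup3 and Apoa2) and WT12 in 8. KO11 was the lowest lung in 8 genes, KO12 in 1 (Ambp) and WT13 in 1 (Serpina1b). Within the high lungs, WT12 lay above WT11 in 10 of 10 genes, by 1.65-fold (Ambp) to 3.28-fold (Fgb). KO1 lay above WT11 in 7 genes. After each gene's mean was taken off, the mean over the 10 genes was 1.79, -2.52 and -1.76 in KO1, KO11 and KO12, against 1.29, 2.53 and -1.34 in WT11, WT12 and WT13. Pearson correlations between the genes over the 6 lungs had a median of 0.94 over 45 pairs. The lowest was 0.68 for Mup3 with Ambp and the highest 0.998 for Mup1 with Serpina1d. All pairs share the same 6 arrays and their scaling.

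The range of the 10 genes over the 6 lungs lay between 3.12 (Alb) and 9.66 (Mup1) on the log2 scale, with a median of 4.53. Over all 20239 genes compared the median range was 0.80, and 4.77% of genes had a range of at least 3, as the 10 did. With normexp background correction or the authors' values, 4 of the 10 (Mup1, Mup4, Serpina1d and Fgb) kept a range of at least 3, against 1.102% and 1.22% of all genes. A range of at least 4 was found in 8 of the 10 and in 1.83% of all genes. Alb and Apoa2 were the genes under that level, at 3.12 and 3.42, and Mup5 lay just above it, at 4.08. Mup1 ranked 15th of all genes by range, Mup4 ranked 32nd and Serpina1d ranked 64th. Counting all genes, 44 (0.217%) had both a range of at least 3 and KO1, WT11 and WT12 as their highest lungs, and these 44 include the 10. For the 8 genes whose lowest lung was not well above background, the log2 range includes values that the scanner software did not call above background, and the folds given above with "at least" are the firmer measure.

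**Figure D2:**
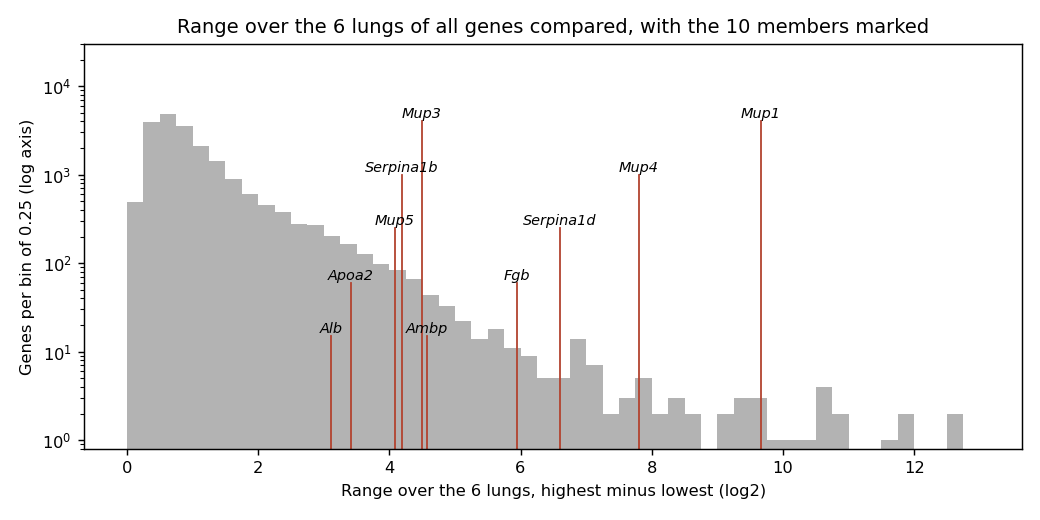
Histogram of the range over the 6 lungs (highest minus lowest, log2) of all 20239 genes compared, with the number of genes per bin on a log axis and the 10 genes as red lines. The heights of the red lines have no meaning. The 10 genes lie between 3.12 and 9.66, to the right of the bulk of genes, whose median is 0.80.

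The comparison of genotypes asks whether loss of Nogo-A and Nogo-B moved these transcripts. In limma fitted over all 20239 genes, none of the 10 passed an adjusted p of 0.05, and 0.00% of all genes did. At an unadjusted p under 0.05 the count was 0 of the 10 and 194 of all genes (0.959%). The knockout mean was lower in 10 of 10 genes, against 47.8% of all genes, but the genes follow the same lungs and do not count as 10 independent observations. The knockout and wild-type lungs overlapped in all 10 genes, while 4.0% of all genes had groups that did not overlap. The 10 were picked for wide variation within both genotypes, which favours overlap, large SDs and high p-values. These results therefore cannot show that the transcripts were unmoved by the loss of Nogo-A and Nogo-B. Mup1 averaged -4.90 ± 4.26 in knockout lungs and -1.78 ± 3.89 in wild-type lungs (SD, n = 3 each), a difference of -3.12 with a standard error of 2.69. The smallest unadjusted p among the 10 was 0.12 for Mup5, which averaged -7.38 ± 1.52 in knockout lungs and -5.78 ± 1.11 in wild-type lungs (SD, n = 3 each), with an adjusted p of 0.9999 by limma. Apoa2 had the smallest difference, -0.23 with a standard error of 0.97. The median difference of the 10 was -1.44, against 0.01 over all genes. It was -2.49 without KO1 and -2.34 without WT13, and -0.83 without WT12 and -0.87 without KO11. In size the difference was below both SDs in Mup1, Alb, Serpina1b, Serpina1d, Fgb, Ambp and Apoa2. In Mup3 (-1.27) and Mup4 (-3.00) it exceeded the wild-type SD, 1.17 and 2.29, but not the knockout SD. In Mup5 (-1.60) it exceeded both SDs.

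The direction was not the same on both scan days. Within day 1, the knockout lungs KO1 and KO11 averaged higher than WT13 in 8 of the 10 genes, with differences between -0.35 (Mup5) and 2.10 (Ambp) and a median of 1.05. Within day 2, KO12 was lower than WT11 and WT12 in 10 of 10 genes, with differences between -6.46 (Mup1) and -1.53 (Apoa2). WT11 and WT12 are high and KO12 low in the order the genes were picked for, so this count repeats that choice. The same counts over all genes were not taken for either day. The smallest adjusted p by limma was 0.97 within day 1 and 0.17 within day 2, with the lone lung of a genotype taken to vary like the others. When scan day entered the fit as a block, Mup1 differed by -2.30 and 10 of 10 genes had a lower knockout mean. The high lungs were scanned on both days, KO1 on day 1 and WT11 and WT12 on day 2. Leaving out KO1 moved the Mup1 difference to -5.47, leaving out KO11 moved it to -1.33, with no adjusted p under 0.05 among the 10 in either case.

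**Figure D3:**
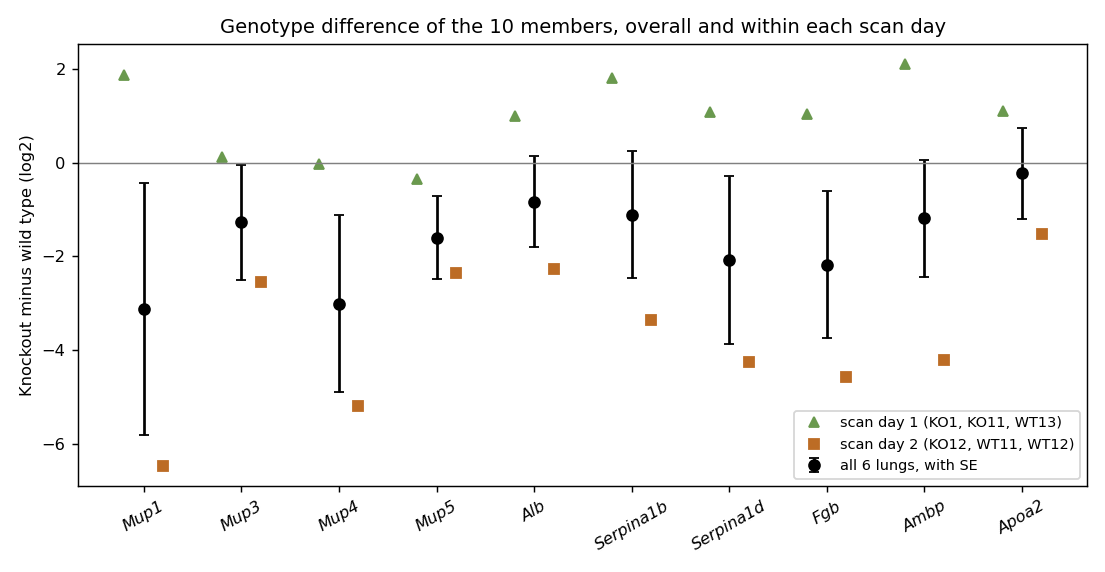
Knockout minus wild type (log2) for each of the 10 genes. Black circles are the difference over all 6 lungs with its standard error from limma, green triangles the difference within scan day 1 and brown squares that within scan day 2. All 10 black circles lie below 0, 8 of the 10 triangles lie above it, and all squares lie below it.

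Other liver genes were looked at to see how far the order of the lungs extended. Of 55 further genes for liver-secreted proteins, 44 could be compared, and 7 of those 44 had KO1, WT11 and WT12 as their highest lungs, against 3.79% of all genes. These 7 were Kng1 (kininogen), Apoa5 (apolipoprotein A-V), Apoh (beta-2-glycoprotein I), Plg (plasminogen), Serpina3k (a serine protease inhibitor), F2 (prothrombin) and Gc (vitamin D binding protein). Apoh was well above background in all lungs, with -3.95, -5.64 and -5.60 in KO1, KO11 and KO12, against -4.85, -3.76 and -5.51 in WT11, WT12 and WT13. Kng1 and Plg were well above background in those 3 lungs alone, so they entered the comparison through them. Among genes well above background in all 6 lungs, 4 of 35 (Apoh, Serpina3k, F2 and Gc) had the order, against 3.97% of all such genes. The ranges of these 4 lay between 1.27 (Gc) and 1.88 (Apoh). Hp (haptoglobin) and Trf (transferrin), which lung also expresses strongly, varied little, with ranges of 0.78 and 0.54. None of the 44 passed the adjusted threshold between genotypes, and the median difference was -0.17, against 0.01 over all genes.

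Among 36 hepatocyte enzyme genes, 23 could be compared and 5 had the same high lungs, against 3.79% of all genes. Among these were Hsd17b13 (a lipid droplet enzyme), G6pc (glucose-6-phosphatase), Agxt (alanine-glyoxylate aminotransferase) and Arg1 (arginase of the urea cycle). In Hsd17b13 the order was narrow, with WT11 and WT12 both at -4.93, against -5.03 in WT13. Agxt was well above background in only 4 lungs. Of the 15 enzyme genes well above background in all lungs, 2 (G6pc and Arg1) had the order, against 3.97% of all such genes. G6pc had -1.02, -4.89 and -1.23 in KO1, KO11 and KO12, against -0.93, -1.08 and -2.32 in WT11, WT12 and WT13. Of the defining hepatocyte markers, some were too dim to be set against Alb and some had another order. Cps1 (the first enzyme of the urea cycle) and Ttr (transthyretin) were not well above background in any lung, with a highest signal of 12.6 for Cps1, in WT12, and of 12.6 for Ttr, in KO1. Apoa1 (apolipoprotein A-I) was well above background in KO1 and WT12 and in no other lung. Its signal was 79.1 in KO1 and 57.3 in WT12, with WT11 next, at 23.4. Cyp2e1 and Cyp3a11, cytochromes P450 that lung also makes, were well above background in all 6 lungs in another order. Cyp2e1 had -2.63, -1.85 and -1.69 in KO1, KO11 and KO12, against -0.18, -1.63 and 0.07 in WT11, WT12 and WT13. Of 25 listed liver genes that were too dim to compare, 12 did not reach the well-above-background call in any lung and 13 reached it in 1 or 2. In 9 of the 25 it was reached in KO1, WT12 or both, and in no other lung. By processed signal, not scaled to the array, 17 of the 25 were highest in KO1 or WT12, the dimmest of them at background. The arrays of KO1 and WT12 were brighter, with 75th percentiles of 2110 and 2127, against 1632, 1636 and 1087 in WT11, KO11 and KO12. That of WT13 was 2344. The same counts over all dim genes were not taken, so neither count sets these liver genes apart. None of the 23 enzyme genes passed the adjusted threshold between genotypes.

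None of the 15 liver transcription factors compared had KO1, WT11 and WT12 as its highest lungs, against 3.79% of all genes. At that share a short list can hold none, so the absence says little, here and for the lists that follow in this paragraph. Hnf4a, a master regulator of hepatocytes, had -4.91, -6.10 and -4.79 in KO1, KO11 and KO12, against -5.77, -6.04 and -4.88 in WT11, WT12 and WT13. Of 16 acute phase genes, which the liver raises in inflammation, none had these highest lungs. Saa3 had -4.19, -1.45 and -2.59 in KO1, KO11 and KO12, against -1.42, -3.48 and -3.49 in WT11, WT12 and WT13, so its highest lungs were KO11 and WT11. Of 26 gland genes, lipocalins and salivary or lacrimal secretory proteins, 18 are on the array and 3 could be compared (Amy1, Bpifa2 and Aqp5). None of these had the order of the 10 genes, and Aqp5 is also in the lung epithelium list. The other gland genes could not be compared, so the list says little about gland transcripts.

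By a fixed measure of likeness, the Pearson correlation over the 6 lungs with the mean of the 10 genes, the closest genes with a symbol were sought among 1140 that had a range of at least 2. Among the 10 closest were Ces3b (a carboxylesterase, 0.99), Mug1 (murinoglobulin, a plasma protease inhibitor, 0.97), Apoa5 (0.95), Cyp3a41a (a cytochrome P450, 0.92), Gfod1 (0.89), Igfbp1 (insulin-like growth factor binding protein, 0.89), Akr1c6 (a steroid dehydrogenase, 0.87), Serpina1e (0.86) and Hoxd9 (a homeobox factor, 0.84). Ces3b and Igfbp1 were well above background in KO1, WT11 and WT12 alone, and Hoxd9 in KO1, WT12 and WT13 alone, so their correlations rest partly on values at background. Ces3b read -3.54 in KO1, against -4.92 and -3.14 in WT11 and WT12. Mug1, well above background in all 6 lungs, had -4.00, -6.07 and -5.94 in KO1, KO11 and KO12, against -4.15, -3.17 and -6.22 in WT11, WT12 and WT13. Hoxd9 differed from the other 9 in that WT13 lay above WT11. Transcripts without a gene symbol lay as close, among them NAP112201-1, whose probe shares 31 bases with that of Mup1 (0.99), and a predicted transcript described in the array files as similar to Mup4 (0.97), both well above background in KO1, WT11 and WT12 alone.

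Markers of other tissues were set beside the 10 genes. In skeletal muscle, 15 of 15 listed genes had a range of at least 3, and they peaked in KO1. Their summed level, with the 75th percentile of each array as 1, lay between 2.47 and 825 in knockout lungs and between 3.77 and 16.5 in wild-type lungs. Taken as the median over genes after each gene's mean was removed, muscle stood at 6.79, -0.51 and -2.54 in KO1, KO11 and KO12, against -2.07, 0.48 and -1.81 in WT11, WT12 and WT13. KO1 was therefore high in both muscle and the liver-type genes, while WT11 was high in the liver-type genes and low in muscle. The summed level of 11 adipocyte genes lay between 10.9 and 47.5 in knockout lungs and between 12.7 and 48.8 in wild-type lungs. The sum of 47.5, in KO1, owed much to 1 gene, Car3, at 5.18 in that lung. Medians taken as for muscle were -0.41, -0.25 and -1.35 in KO1, KO11 and KO12, against 0.63, -0.83 and 1.58 in WT11, WT12 and WT13. Adipoq, the fat hormone adiponectin, was highest in WT13 and WT11. The summed level of 8 mesothelial genes lay between 32.2 and 92.4 in knockout lungs and between 33.7 and 95.5 in wild-type lungs. The highest lungs by that sum were KO12 and WT11. The part of these markers in the values of the 10 genes was not tested.

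Erythroid genes, which mark blood, had summed levels between 464 and 779 in knockout lungs and between 373 and 545 in wild-type lungs, and the lung with most was KO12. That sum owed most to Hba-a1 and Hbb-bt, at 8.35 and 8.74 in KO12. The median level of the list was -2.37, -2.65 and -2.50 in KO1, KO11 and KO12, against -2.28, -1.97 and -2.73 in WT11, WT12 and WT13. By this median the highest lungs were KO1, WT11 and WT12. The part of blood in the values of the 10 liver-type genes was not tested. KO1, WT11 and WT12 were the highest lungs in 2 of the 10 erythroid genes, against 3.79% of all genes. The 14 lung epithelium genes had a median level between 5.12 and 5.18 in knockout lungs and between 4.86 and 5.26 in wild-type lungs. Their ranges had a median of 0.68, and none of them had KO1, WT11 and WT12 as its highest lungs. None of the 10 lung endothelium and macrophage genes or the 8 acinar pancreas genes had that order either. At the share of all genes, lists this short can hold none, so these absences say little about the lists. Cpa1, the pancreatic carboxypeptidase, was highest in KO1, at -3.15, against -5.46 and -5.53 in KO11 and KO12 and values between -5.81 and -5.45 in the wild-type lungs.

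**Figure D4:**
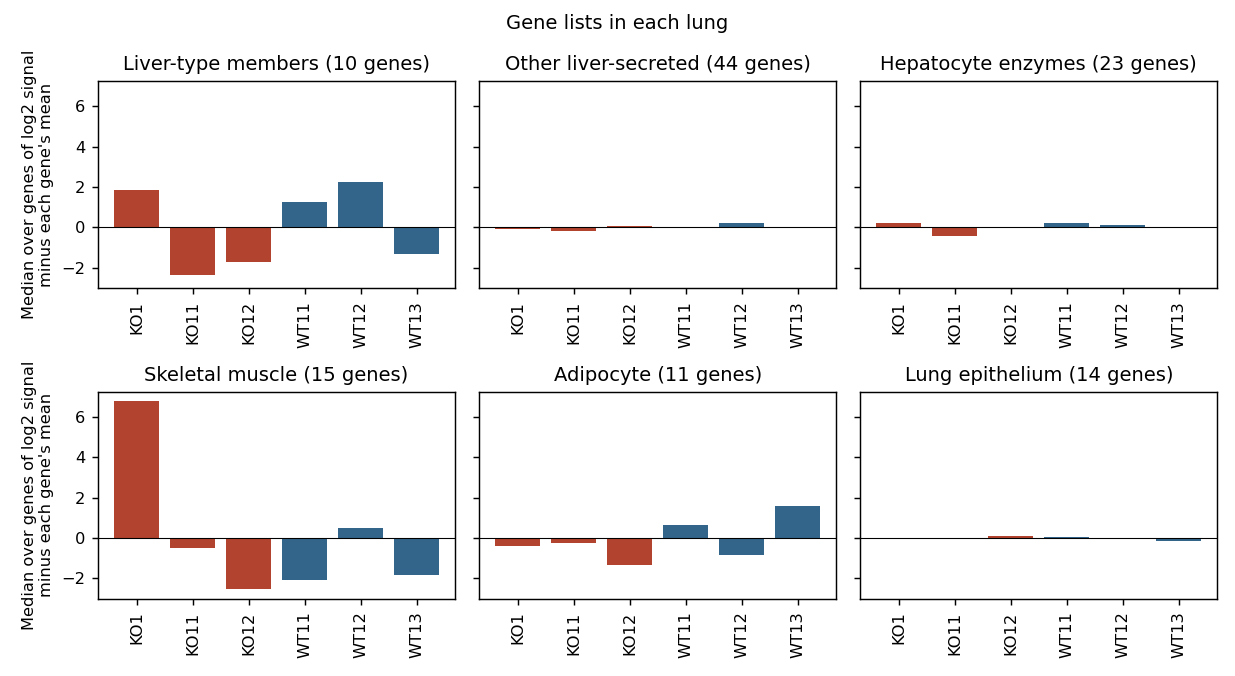
Median over the genes of a list of the log2 signal after each gene's mean over the 6 lungs was removed (vertical axis), by lung, with knockout lungs in red on the left and wild-type lungs in blue on the right. The liver-type genes are high in KO1, WT11 and WT12, skeletal muscle is at 6.79 in KO1, adipocyte genes are highest in WT13, and lung epithelium lies between -0.16 and 0.12.

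RefSeq windows of 250 bases before the start site (GRCm38.p6) were at hand for 8 of the 10 genes. The windows of Serpina1b and Serpina1d were identical at 223 of 262 aligned positions (85.1%), and those of Mup3 and Mup4 at 203 of 271 (74.9%). The other pairs of windows lay between 45.1% and 53.4%.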

How the data were processed

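The arrays were Agilent design 014868 and total RNA was amplified and labelled with Cy3, per the labels' protocols. The deposited intensity of each spot is the processed signal of Feature Extraction 9.5.1.1, background-subtracted and detrended, per the file headers. Version 9.1 stands in the submitters' processing notes. The authors' series matrix holds log2 values with column medians between 8.087 and 8.090. It follows the scanner's median signal (Spearman correlation of at least 0.99996 across probes). The sources used here do not give its scaling.

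Outlier spots (48 to 99 per array) were left out, spots of a probe averaged, 30 flagged probes dropped, and log2 signals scaled to the 75th percentile of each array, which lay between 1087 and 2344. A gene was read by its brightest probe among those well above background on at least 3 arrays. All 10 genes passed, 4 of them (Mup5, Serpina1b, Fgb and Apoa2) through exactly 3 arrays. Names came from RefSeq (GRCm38.p6) for 32733 of 41174 probes, and the array's Alb1 became Alb. A lung's bound is the higher of its own value and the lowest signal called well above background on its array, and a spread "at least" sets the highest lung against the lowest of these bounds.

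The genotype test was limma 3.58.1 (R 4.3.3), two-sided, with Benjamini-Hochberg adjustment over 20239 genes, and the test was checked on simulated data. The number of arrays, 3 a genotype, limits the precision. Alternatives were quantile normalization, median scaling, normexp with an offset of 50, the authors' values, no filter on dim probes, scan day or slide as a block, each day alone, a replicate block and leaving out each lung. The genes, their rule for naming and the 14 lists were chosen with earlier results of these data known. The rule named the 10 genes, the Mup and Serpina1 probes, Rtn4, fixed hepatocyte markers, up to 6 genes of a list with the widest range, and the 10 genes with the profile most like theirs. The liver genes named for sharing the order of the lungs were taken from the lists after their values were seen. Figures were drawn with matplotlib 3.10.9. Results on some genes are not reported here.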

Additional observations from a re-analysis of the deposited data

How the results depend on the processing

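The same 3 lungs, KO1, WT11 and WT12, were highest in 10 of 10 genes under quantile normalization, median scaling, normexp and the authors' values. With normexp and an offset of 50 and with the authors' values the range over the lungs was narrower in all 10 genes, and it stayed at least 3 in 4 of them (Mup1, Mup4, Serpina1d and Fgb). With normexp the range moved by more than the pooled SD within genotypes for Mup3 (2.57), Mup5 (1.20), Serpina1b (1.53), Fgb (3.06), Ambp (2.58) and Apoa2 (1.16). It did so with the authors' values for Mup5 (1.51), Serpina1b (1.57), Fgb (3.26), Ambp (2.66) and Apoa2 (1.22). Normexp adds 50 to each signal by construction, and the authors' values follow a signal without background subtraction. The dimmer Mup3 probe, below background throughout, had a range of 1.74. The number of genes past the adjusted threshold, 0 by the main setting, was 2 with median scaling, 1 with normexp, 1 with the authors' values and 2 with slide as a random block. Leaving out a lung gave between 0 and 1, with 1 without KO1. None of the 10 genes was among those called.

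The knockout minus wild-type difference kept its sign in 146 of 160 recomputed values. It was above 0 within scan day 1 for Mup1 (1.86), Mup3 (0.12), Alb (1.003), Serpina1b (1.80), Serpina1d (1.08), Fgb (1.03), Ambp (2.10) and Apoa2 (1.103), where WT13 is the only wild-type lung. The difference of Apoa2 was also above 0 with normexp (0.052), the authors' values (0.022) and slide as a random block (0.11). It lay between -1.29 and 0.42 when a lung was left out, above 0 without WT12, KO11 or KO12. For the other 9 genes leaving out a lung kept the sign, between -5.47 and -1.33 for Mup1 and between -1.73 and -0.25 for Alb. The smallest adjusted p among the 10 over all alternatives was 0.17.

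Lungs 11 and 12 carry the same number in both genotypes. Their deviations correlated by -0.24 for KO11 with WT11 and 0.42 for KO12 with WT12, so the numbers were not taken as pairs. With a replicate block over those lungs, 10 of 10 differences were below 0, between -7.68 and -1.75, and the smallest adjusted p by limma was 0.66. KO11 and KO12 are low and WT11 and WT12 high in the order the genes were picked for, so these signs repeat that choice. Probes under background on KO11, KO12 or WT13 limit 8 of the 10 ranges to bounds.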
